A study of Drosophila melanogaster with 12 samples.

Results

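The cytoplasmic ribosomal protein genes were followed in testes that lack su(Hw) and in testes that carry it. The genes were those whose single symbol in the array's annotation begins with RpL or RpS and a digit, or with RpLP, and mitochondrial mRpL and mRpS genes were kept out. This gave 41 genes of the 11982 genes named on the array, 25 for the large subunit and 16 for the small one, each read from the brightest of its probe sets, by mean log2 signal over the 12 arrays. Of the 92 genes that the same naming rule finds in a RefSeq table, 51 had no probe set with their symbol alone and were not analysed here, RpL22, RpS5a, RpS19a and RpS10b among them.

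A ribosome has a small subunit, which reads the messenger RNA, and a large subunit, which joins the amino acids, and each is built from ribosomal RNA and a fixed set of proteins. In flies most of these proteins come from a single gene that every cell uses, and loss of 1 copy of many of them gives the Minute phenotype of slow growth and thin bristles. Some have a second gene, and several of these paralogs, such as RpL22-like, RpL10Aa, RpL37-2, RpS5b and RpS19b, are known for use in the germline. Su(Hw) is a zinc-finger protein that binds DNA, known for the gypsy insulator and for repression of neuronal genes in the female germline.

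RNA came from dissected testes of males aged 3 days, with 3 arrays for each of 4 genotypes, and the replicates are biological ones, per the labels. The null 2/v had su(Hw)[2] over su(Hw)[v] and carried the markers y[1] and w[67c23] together with ct[6] and f[1]. The null A2663/2 had su(Hw)[A2663] over su(Hw)[2] with the markers y[1] and w[67c23] and with the P element P{EPgy2} inserted at Amt, as allele Amt[EY02782]. BL15598 had these markers and this insertion with wild-type su(Hw), and Canton S was the unmarked laboratory wild type. Both nulls thus share allele 2, and A2663/2 shares the Amt insertion with BL15598 alone. The markers y[1] and w[67c23] are common to 2/v, A2663/2 and BL15598. These named items do not show that the rest of the background is shared. Each RNA was from a pool of testes, and in such bulk RNA fewer cells of a type and less RNA per cell cannot be told apart.

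The targeted gene matched the labels. The su(Hw) signal averaged 42.6 ± 25.6 in 2/v and 70.1 ± 17.3 in A2663/2, against 1392 ± 161 in BL15598 and 984.5 ± 191 in Canton S (SD, n = 3 each), a log2 change of -4.52 over both nulls against both wild types (SE 0.283, limma adjusted p = 1.04e-05). The lowest 2/v array, at 19.2, lay below the control level given next. All 12 spermatid markers and all 9 spermatocyte markers lay above 20.4, the median signal of the 183 control probe sets. The median signal of an array lay between 190 and 242 in linear units, and the 41 genes took between 1.492% and 1.722% of the summed signal of all named genes. Precision was limited by the number of arrays.

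All 41 genes were measured on every array above the level of the control probe sets. Their mean signals ran from 584 for RpLP0-like to 29955 for RpL41, which codes for a very short large-subunit peptide and is named here for that level, and 24 genes averaged over 10000. Signals of different probe sets depend on their probes and say nothing of which transcript was more abundant. The median SD between replicates was 0.131 on the log2 scale, the same as for the 5942 named genes whose mean signal lay in the same range. In 38 genes the highest array was under 2 times the lowest, with a median ratio of 1.38. The other 3 were RpL27, RpLP0-like and RpS21. The probe sets of 13 genes, RpS21, RpS7 and RpL17 among them, carry the _s suffix of sets whose probes can match more than 1 transcript, so their values could include another transcript.

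The question of the main comparison is whether testes without su(Hw) hold other transcript levels than testes with it. Of the 41 genes, 0 were higher and 2 were lower in both nulls against both wild types at a limma adjusted p under 0.05, which is 4.88% of them. Of all named genes 9.79% were higher and 5.96% lower, 15.7% in all, and of those in the same signal range 15.6% were called. At an unadjusted p under 0.05, 3 genes were higher and 4 lower. The median log2 change of the 41 genes was -0.0368, against 0.0223 over all named genes, and their changes spanned -0.42 to 0.30, against -5.21 to 6.30 over all named genes. No gene reached a change of 0.5 log2 units, which 9.61% of genes in the same signal range did. No gene had all 6 null arrays on 1 side of all 6 wild-type arrays, as 7.59% of named genes did. Centring each array on its median moved the median change over all probe sets to -0.12 log2 units, against 0.05 as deposited, and that of the 41 genes to -0.21. With quantile normalization the median was -0.024 over all probe sets and -0.0033 over the 41 genes, so whether these genes lay below or above the median of all probe sets turned with the scaling.

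The 95% intervals give the precision of each estimate, for a single gene and without adjustment for the number of probe sets. They do not give the size of change that the adjusted threshold could miss. The interval of RpL3, 0.0755 to 0.5146, left out 0 without a call. The intervals reached from 0.136 log2 units on either side of the estimate for RpS20 to 0.442 for RpLP0-like, with a median of 0.208. For 36 of the 39 genes that were not called the whole interval lay within 0.5 log2 units of 0. For all 39 of them it lay within a 2-fold change. The 25 large-subunit genes had a median log2 change of -0.0604 with RpL22-like the only call, and the 16 small-subunit genes had a median of -0.0151 with RpS21 the only call. The 12 paralogs and -like forms had a median of -0.15, against -0.0319 for the other 29. In A2663/2 against BL15598 these medians were -0.0403 and -0.0298, and in 2/v against Canton S they were -0.133 and -0.0527. The difference between the 12 and the 29 genes was not tested.

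**Figure D1:**
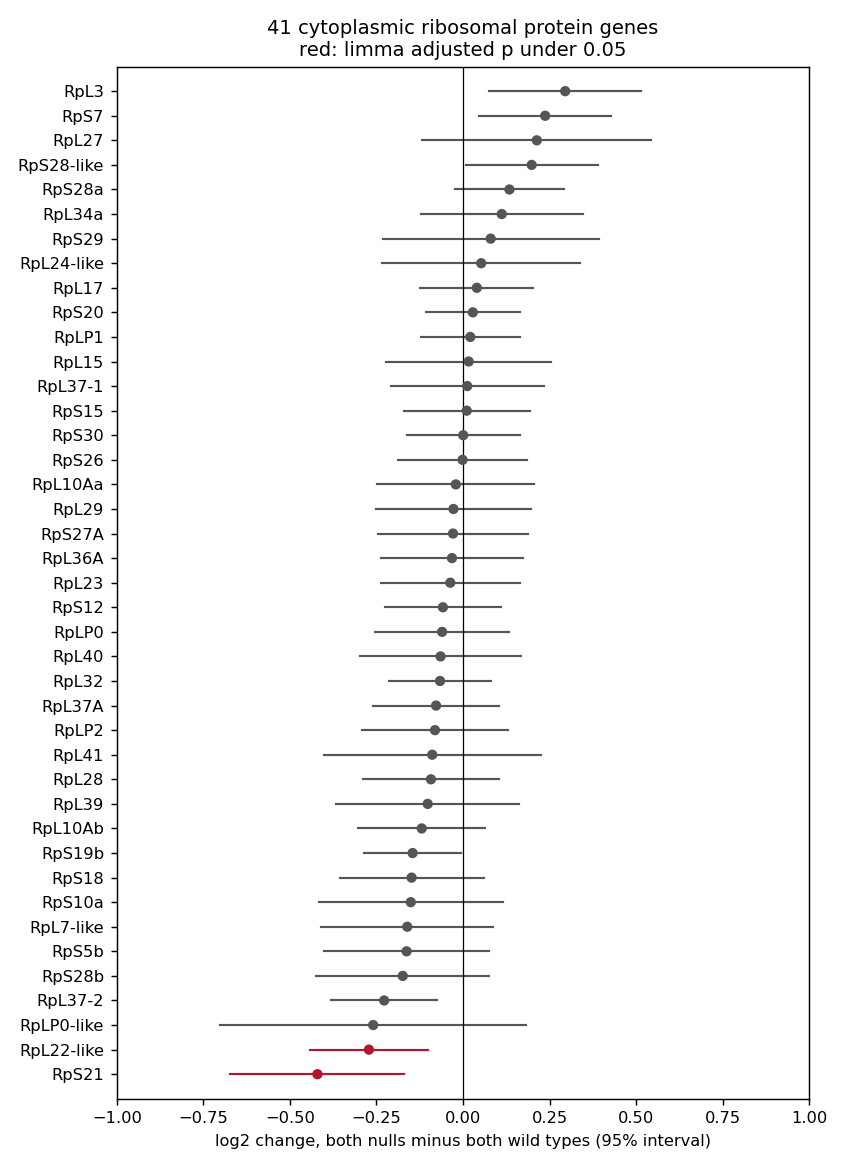
Log2 change of each of the 41 ribosomal protein genes over both nulls minus both wild types (horizontal axis, limma estimate with its 95% interval), sorted by size, with the 2 genes called at an adjusted p under 0.05 in red. RpS21 at -0.42 and RpL22-like at -0.27 are the called genes, and every estimate lies between -0.42 and 0.30.

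RpS21, a protein of the small subunit, had signals of 10808, 10841 and 10784 in 2/v and 10233, 9151 and 11230 in A2663/2. The signals were 10242, 11633 and 13886 in BL15598 and 19538, 17111 and 13815 in Canton S. The Canton S arrays were the high ones, with its lowest array just under the highest array of BL15598, and BL15598 overlapped with both nulls. RpS21 fell by 0.42 on the log2 scale in both nulls against both wild types (1.34-fold, SE 0.112, limma adjusted p = 0.035). Against Canton S alone it was 1.54-fold lower in 2/v (log2 -0.62, SE 0.158, limma adjusted p = 0.035) and 1.64-fold lower in A2663/2 (log2 -0.71, SE 0.158, limma adjusted p = 0.0212), 2 values that share the Canton S arrays. Against BL15598 the log2 differences were -0.13 in 2/v and -0.22 in A2663/2, with limma adjusted p = 0.704 and 0.512. No change was thus shown against BL15598, the wild type that shares the Amt insertion with A2663/2. The call over all genotypes was kept without Canton S replicate 3, BL15598 replicate 1 or A2663/2 replicate 3 and lost without any of the other 9 arrays (limma adjusted p between 0.0178 and 0.0817), and it was lost with genotypes ignored within nulls and wild types (0.124). The call in A2663/2 against Canton S was lost without replicate 1 or 2 of either genotype (limma adjusted p up to 0.0805), and the call in 2/v against Canton S without any 2/v array, Canton S replicate 1 or 2, BL15598 replicate 2 or A2663/2 replicate 1 (up to 0.105).

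RpL22-like is the paralog of RpL22, an RNA-binding protein of the large subunit, and is known for its high level in the testis. Its signals were 3486, 3683 and 3321 in 2/v and 4193, 4111 and 4173 in A2663/2, against 5184, 5543 and 4532 in BL15598 and 3845, 4256 and 4455 in Canton S. The 2/v arrays were the 3 lowest and the BL15598 arrays the 3 highest, and A2663/2 lay inside the range of Canton S. RpL22-like fell by 0.27 on the log2 scale in both nulls against both wild types (1.21-fold, SE 0.0763, limma adjusted p = 0.0439). In 2/v against BL15598 it was 1.45-fold lower (log2 -0.54, SE 0.108, limma adjusted p = 0.0117), whereas the log2 differences were -0.29 in A2663/2 against BL15598 and -0.26 in 2/v against Canton S, neither past the threshold (limma adjusted p = 0.176 and 0.188). The call over all genotypes was kept without Canton S replicate 1 or BL15598 replicate 3 and lost without any of the other 10 arrays (limma adjusted p between 0.0196 and 0.0974), and it was lost when each array was centred on the median of the 41 genes (0.234). The call in 2/v against BL15598 was lost under that centring (0.0972) and when only the 6 arrays compared were fitted (0.0926).

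RpS28 lies at the exit of the messenger RNA channel of the small subunit, and flies carry several genes for it, of which RpS28b is the broadly used one. RpS28a had signals of 5946, 5697 and 5650 in 2/v and 5639, 5453 and 5956 in A2663/2, against 4021, 3623 and 4182 in BL15598 and 7177, 6398 and 7177 in Canton S. The nulls overlapped with each other, every BL15598 array lay below both of them, and every Canton S array lay above both. A2663/2 and BL15598 differ in su(Hw) and share the named markers and the Amt insertion. The rest of their background was not shown to be shared, and its part in their differences was not tested. In A2663/2 against BL15598, RpS28a was 1.44-fold higher (log2 0.53, SE 0.0988, limma adjusted p = 0.0114). It was the only gene of the 41 called there, where 8.17% of all named genes were called. In 2/v against BL15598 it was 1.47-fold higher (log2 0.55, SE 0.0988, limma adjusted p = 0.00658), while against Canton S the log2 differences were -0.26 in 2/v and -0.28 in A2663/2, with limma adjusted p = 0.144 and 0.122.

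The largest estimate for RpS28a was the one between the wild types. It was 1.755-fold lower in BL15598 than in Canton S (log2 -0.81, SE 0.0988, limma adjusted p = 0.000749). The effect of 2/v against Canton S and that of A2663/2 against BL15598 differed by -0.79 log2 units (SE 0.14, limma adjusted p = 0.0131), the only such difference called among the 41 genes, with 5.02% of named genes called. Over both nulls against both wild types the opposite differences left 0.13, which did not pass (limma adjusted p = 0.27). The 2 calls against BL15598 were lost when each array was centred on its median (limma adjusted p = 0.0748 in A2663/2 and 0.0551 in 2/v) and when only the arrays compared were fitted (0.096 and 0.0672), and the call in A2663/2 was lost without A2663/2 replicate 3 (0.0561). The call between the wild types was kept in all 12 fits that left out an array, with limma adjusted p between 0.00158 and 0.00451.

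The other genes of this family were not called in any comparison. RpS28-like had signals of 14749, 13038 and 15672 in 2/v and 12856, 13458 and 13616 in A2663/2, against 12088, 12606 and 14717 in BL15598 and 12245, 11082 and 10228 in Canton S. Both nulls lay above all Canton S arrays and overlapped with BL15598, and the log2 change over both nulls against both wild types was 0.20 (SE 0.085, limma adjusted p = 0.176), which passed with quantile normalization (0.24, limma adjusted p = 0.0279). RpS28b averaged 16311 ± 1106 in 2/v and 16166 ± 434 in A2663/2, against 18577 ± 3276 in BL15598 and 18388 ± 3000 in Canton S (SD, n = 3 each), with a log2 change of -0.17 (limma adjusted p = 0.376). Set against RpS28b on the same array, the log2 ratio of RpS28a differed from its mean in Canton S by -0.0992 in 2/v, -0.109 in A2663/2 and -0.825 in BL15598. That ratio varied with an SD of 0.0928 in 2/v, 0.0629 in A2663/2, 0.239 in BL15598 and 0.264 in Canton S (n = 3 each). The difference was larger than the Canton S spread in BL15598 and smaller than it in both nulls.

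RpL37 is a small zinc-binding protein at the core of the large subunit, made from RpL37-1 in most tissues and, in the testis, also from RpL37-2. RpL37-2 had signals of 7199, 7529 and 6670 in 2/v and 8449, 8558 and 8546 in A2663/2, against 11134, 10751 and 10969 in BL15598 and 8258, 7626 and 6969 in Canton S. All 3 BL15598 arrays lay above the other 9, and 2/v overlapped with Canton S. RpL37-2 was 1.54-fold lower in 2/v than in BL15598 (log2 -0.62, SE 0.0968, limma adjusted p = 0.00305) and 1.44-fold higher in BL15598 than in Canton S (log2 0.53, SE 0.0968, limma adjusted p = 0.00791). Both calls share the BL15598 arrays and were kept in all 12 fits that left out an array, and the second was lost when only the 6 arrays compared were fitted (0.113). In A2663/2 against BL15598 the log2 difference was -0.36 (SE 0.0968, limma adjusted p = 0.057), and over both nulls against both wild types it was -0.23 (SE 0.0685, limma adjusted p = 0.058). The last of these was called with each array centred on its median (0.009), with dim probe sets left out (0.0407), with a trended and robust prior (0.0143), with array weights (0.0357) and without Canton S replicate 3 (0.0422). In A2663/2 against BL15598, RpL37-2 was called under the same centring, filter, prior and array weights. Under that centring RpL37-2 was the only gene of the 41 called in this pair, and RpS28a was not called.

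RpL37-1 showed no such order. Its signals were 12573, 11826 and 9928 in 2/v, 11438, 11653 and 12450 in A2663/2, 10418, 12371 and 12137 in BL15598 and 11784, 12889 and 9800 in Canton S, with a log2 change of 0.01 over both nulls against both wild types (limma adjusted p = 0.96). All 4 genotypes overlapped. The log2 ratio of RpL37-2 to RpL37-1 differed from its Canton S mean by -0.0893 in 2/v, 0.112 in A2663/2 and 0.503 in BL15598, with SDs of 0.117, 0.0589 and 0.159 beside 0.147 in Canton S (n = 3 each).

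**Figure D2:**
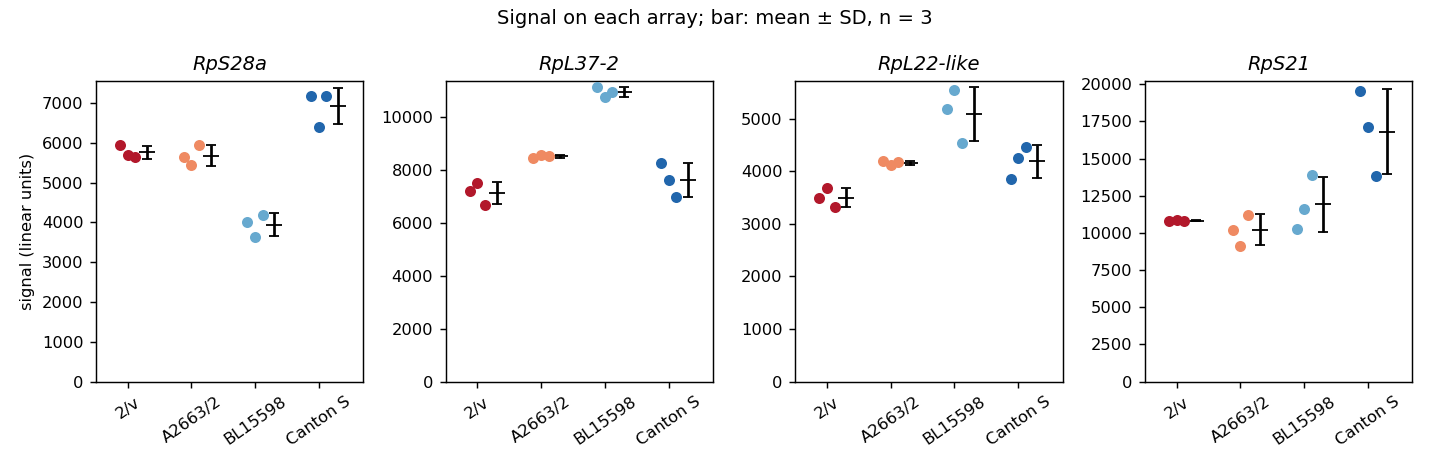
Signal of the 4 ribosomal protein genes called in any comparison on each array (vertical axes, linear units from 0), with the nulls 2/v and A2663/2 left of the wild types BL15598 and Canton S and with mean ± SD of 3 arrays beside the points. RpS28a is lowest and RpL37-2 and RpL22-like are highest in BL15598, and RpS21 is highest in Canton S, while 2/v lies below A2663/2 without overlap in RpL22-like and RpL37-2 and overlaps with it in RpS28a and RpS21.

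The remaining paralogs and -like forms were not called in any comparison. RpL10A forms the stalk of the large subunit by which spent transfer RNA leaves. Its testis paralog RpL10Aa averaged 20654 ± 1444 in 2/v and 19663 ± 1400 in A2663/2, against 19671 ± 2324 in BL15598 and 21452 ± 3413 in Canton S (SD, n = 3 each), with a log2 change of -0.02 over both nulls against both wild types (limma adjusted p = 0.929). The broadly used RpL10Ab had -0.12 (limma adjusted p = 0.412). For neither gene did a null stand outside the wild types' range.

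RpS19b is the germline paralog of RpS19a, a small-subunit protein whose human counterpart is mutated in Diamond-Blackfan anaemia. It had signals of 8316, 7696 and 8223 in 2/v and 8257, 8707 and 9193 in A2663/2, against 9463, 9113 and 9138 in BL15598 and 9345, 9513 and 9100 in Canton S. The 2/v arrays lay below all 6 wild-type arrays, and A2663/2 reached into their range. The log2 change over both nulls against both wild types was -0.15 (SE 0.062, limma adjusted p = 0.172), and it passed only when each array was centred on its median (-0.32, limma adjusted p = 0.0221). RpS5b, the germline paralog of a protein near the messenger RNA exit, had -0.16 (limma adjusted p = 0.385), which also passed only under that centring (-0.33, limma adjusted p = 0.0284). RpS10a had -0.15 (limma adjusted p = 0.486) and RpL34a 0.11 (limma adjusted p = 0.565).

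RpL7-like, RpL24-like and RpLP0-like resemble yeast proteins that help to assemble the large subunit and are not part of the finished ribosome. Their log2 changes over both nulls against both wild types were -0.16, 0.05 and -0.26, and none passed (limma adjusted p = 0.415, 0.844 and 0.466). RpLP0-like was also among the most variable genes of the 41, with 554 ± 179 in 2/v and 531 ± 9.54 in A2663/2, against 707 ± 270 in BL15598 and 607 ± 24.6 in Canton S (SD, n = 3 each). The spread within 2/v and within BL15598 was larger than the difference between the groups.

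The stalk proteins, which recruit elongation factors to the large subunit, were not called in any comparison. RpLP0 averaged 4438 ± 153 in 2/v and 4933 ± 706 in A2663/2, against 5135 ± 421 in BL15598 and 4618 ± 210 in Canton S (SD, n = 3 each), with a log2 change of -0.06 (limma adjusted p = 0.723). RpLP1 and RpLP2, named after their values were seen to complete the stalk, had log2 changes of 0.02 and -0.08 (limma adjusted p = 0.878 and 0.657).

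The largest positive estimate over both nulls against both wild types was that of RpL3, one of the proteins nearest to the site where peptide bonds form. RpL3 had signals of 5810, 4972 and 5316 in 2/v and 5818, 5782 and 7389 in A2663/2, against 5639, 4660 and 4354 in BL15598 and 4595, 4500 and 4729 in Canton S. Both nulls lay above all Canton S arrays, and 2/v overlapped with BL15598. The log2 change was 0.30 (SE 0.0977, limma adjusted p = 0.082), and it was called with a trended and robust prior (0.0185), with array weights (0.047) and without BL15598 replicate 1 (0.044). A second probe set of RpL3 gave a log2 change of -0.00193 (limma adjusted p = 0.994), and another, dim one gave -0.0583 (limma adjusted p = 0.90), so the 3 probe sets of this gene did not move alike.

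RpL27, with a log2 change of 0.21 (limma adjusted p = 0.417), had 1 array apart, A2663/2 replicate 2 at 10695, while the other 11 arrays lay between 5302 and 7360. RpL17 had 0.04, RpS20 0.03 and RpS29 0.08, with limma adjusted p = 0.79, 0.822 and 0.779. RpS18, a protein of the small-subunit head, had -0.15 (limma adjusted p = 0.361). None of these 5 genes was called in any comparison.

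RpS7, a small-subunit protein, was read by 2 probe sets that did not behave alike. The brighter one, which represents the gene and carries the _s suffix, had signals of 6898, 6277 and 5824 in 2/v and 6464, 6561 and 7128 in A2663/2, against 6228, 6073 and 5879 in BL15598 and 4384, 5093 and 5725 in Canton S. The Canton S arrays were the 3 lowest, and A2663/2 lay above BL15598 without overlap while 2/v overlapped with both, and the log2 change over both nulls against both wild types was 0.24 (SE 0.0852, limma adjusted p = 0.107), which was called with a trended and robust prior (0.0336).

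The dimmer probe set of RpS7 had signals of 286, 247 and 298 in 2/v and 37.3, 28.1 and 31.7 in A2663/2, against 4.31, 3.16 and 3.16 in BL15598 and 98.0, 69.2 and 85.8 in Canton S. No genotype overlapped with another, and BL15598 lay below the control level of 20.4. In 2/v the signal was 8.59-fold higher than in A2663/2 (limma adjusted p = 8.32e-05) and 3.31-fold higher than in Canton S (limma adjusted p = 0.000288), while in A2663/2 it was 2.59-fold lower than in Canton S (limma adjusted p = 0.00138). Against BL15598 there are only bounds, taken over the control level: at least 13.5-fold higher in 2/v, at least 1.57-fold higher in A2663/2 and at least 4.08-fold lower in BL15598 than in Canton S (limma adjusted p = 1.2e-07, 1.52e-05 and 1.48e-06). The nulls thus lay on opposite sides of Canton S. The sources used here do not give where its probes lie in the gene. The additional probe sets of RpL3, RpS29 and RpS30 were not called over both nulls against both wild types.

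**Figure D3:**
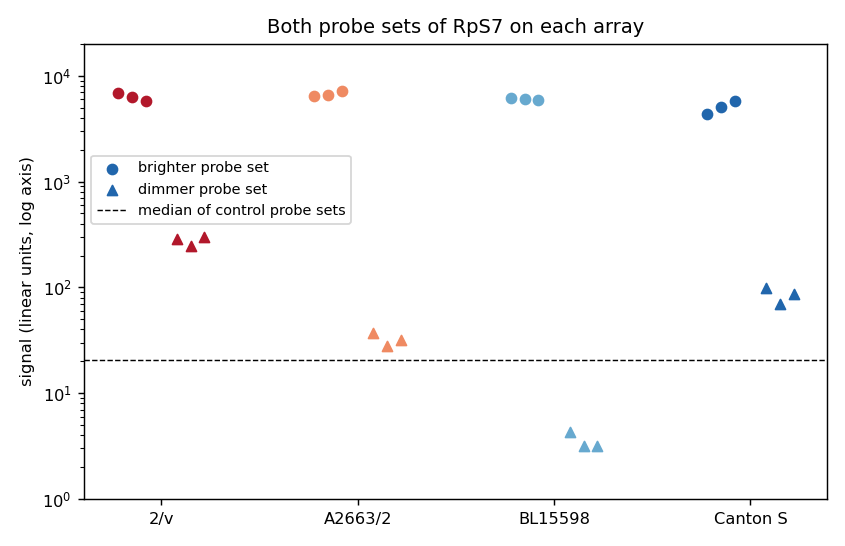
Signal of both RpS7 probe sets on each array (vertical axis, linear units on a log axis), with the nulls 2/v and A2663/2 left of BL15598 and Canton S, and the median of the control probe sets at 20.4 as a dashed line. The brighter probe set stays between 4384 and 7128, while the dimmer one runs from 3.16 in BL15598 to 298 in 2/v.

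Pair by pair, few of the 41 genes were called. In 2/v against Canton S, 1 gene was called (RpS21, lower) where 12.2% of named genes were. In A2663/2 against Canton S it was again 1 (RpS21, lower), beside 10.7% of named genes. In 2/v against BL15598, 3 were called (RpS28a higher, RpL37-2 and RpL22-like lower), beside 12.5%. These comparisons share null or wild-type arrays. None of the 41 was called with the same sign against each wild type in each null, as were 292 of the 11982 named genes, or 2.44%.

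Between the wild types, BL15598 against Canton S, 2 genes were called (RpL37-2 higher, RpS28a lower), beside 11.4% of named genes. Between the nulls, 2/v against A2663/2, limma called 0 of the 41, beside 1.13% of named genes, and at an unadjusted p under 0.05 it had 0 higher and 3 lower. The difference between these counts was not tested.

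Genes whose 3 and 3 arrays did not overlap were fewer than in the background in every pair. There were 6 of the 41 in A2663/2 against BL15598 beside 29.5% of named genes, 8 in 2/v against Canton S beside 33.3%, 10 in A2663/2 against Canton S beside 32.7% and 10 in 2/v against BL15598 beside 32.6%. BL15598 against Canton S had 8 beside 28.4%, and 2/v against A2663/2 had 6 beside 20.5%. The 41 genes made these counts 14.6%, 19.5%, 24.4%, 24.4%, 19.5% and 14.6% of their own number. These pairs share arrays and are not separate observations, and the difference from the background shares was not tested.

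**Figure D4:**
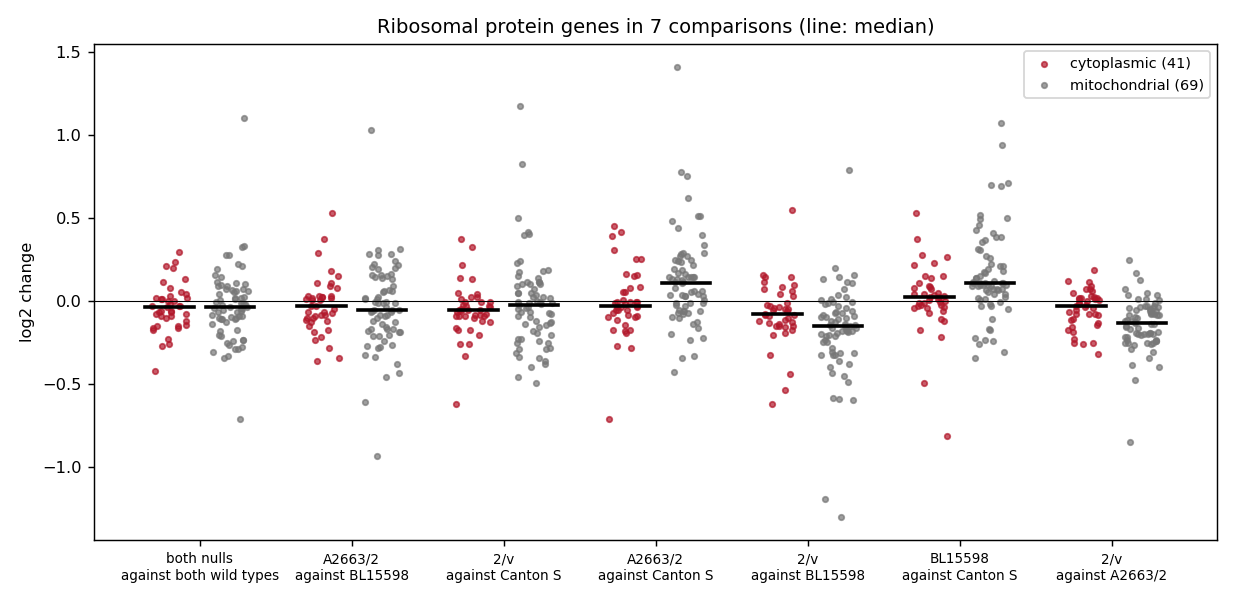
Log2 change of the 41 cytoplasmic (red) and 69 mitochondrial (grey) ribosomal protein genes in 7 comparisons (vertical axis, limma estimates), each point a gene and each line a median. The cytoplasmic medians lie between -0.0792 and 0.0239, and the cytoplasmic points farthest from 0 are RpS28a at -0.81 and RpS21 at -0.71, while mitochondrial points reach from -1.30 to 1.41.

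The 69 mitochondrial ribosomal protein genes, which build the separate ribosome of the mitochondrion, are set beside them as the nearest other gene group. Over both nulls against both wild types 2 were higher and 3 lower, with a median of -0.0376. The widest was mRpL27, which was higher in both nulls (log2 1.10, SE 0.18, limma adjusted p = 0.00317), followed by mRpL54, which was lower (log2 -0.71, SE 0.119, limma adjusted p = 0.0035). No test of the 2 groups of genes against each other was made.

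Genes that make, use or regulate ribosomes were read from lists of textbook members. Of 34 measured genes of ribosome biogenesis, 0 were higher and 1 lower over both nulls against both wild types, with a median log2 change of -0.0627. The lower one was wcd, a nucleolar protein known from germline stem cells of the ovary, with mean signals of 76.1 in 2/v and 90.3 in A2663/2, against 151 in BL15598 and 125 in Canton S (log2 -0.73, 1.66-fold, SE 0.189, limma adjusted p = 0.0314). The wild-type means were the higher ones in both stocks.

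Of 36 measured initiation and elongation factors, 2 were higher and 1 lower, with a median of -0.0171. The isoform eEF1alpha2 of the factor that brings transfer RNA to the ribosome was 1.49-fold higher (log2 0.57, SE 0.131, limma adjusted p = 0.0177), and eIF4E1, the cap-binding protein, was 1.201-fold higher (log2 0.26, SE 0.0623, limma adjusted p = 0.0207). eIF3e, a subunit of the initiation factor that binds the small subunit, was 1.38-fold lower (log2 -0.46, SE 0.0759, limma adjusted p = 0.00319), with means of 2838 in 2/v and 3493 in A2663/2, against 4179 in BL15598 and 4521 in Canton S. These 3 factors were not called in A2663/2 against BL15598 (limma adjusted p = 0.209, 0.229 and 0.231).

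Of 15 measured growth regulators and factors known at ribosomal protein promoters, 1 was higher and 0 were lower, with a median of 0.0107. S6k, the kinase that phosphorylates the small-subunit protein RpS6, was 1.38-fold higher (log2 0.47, SE 0.115, limma adjusted p = 0.0251), and it was not called for either null against either wild type. The promoter factors M1BP, Dref and Trf2, named after their values were seen, had log2 changes of 0.02, 0.01 and 0.19 (limma adjusted p = 0.953, 0.974 and 0.16). Rack1, a small-subunit protein outside the naming rule, had 0.21 (limma adjusted p = 0.152). In these lists no gene was called with the same sign in both nulls against both wild types taken singly.

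Within a genotype, many of the 41 genes moved together from array to array in the wild types. Canton S replicate 1 was the highest array of its genotype for 28 of the 41 genes and BL15598 replicate 3 for 26, while BL15598 replicate 1 and Canton S replicate 3 were the lowest for 28 each. The median deviation of the 41 genes from the genotype mean was 0.104 log2 units on Canton S replicate 1, 0.09 on BL15598 replicate 3, -0.102 on BL15598 replicate 1 and -0.117 on Canton S replicate 3, and it lay between -0.044 and 0.0277 on the 6 null arrays. The wild-type groups therefore spread more than the null groups.

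The summed signal of the 12 spermatid markers moved with this pattern. It was 314093 on BL15598 replicate 3 and 311880 on Canton S replicate 1, but 208400 on BL15598 replicate 1 and 216070 on Canton S replicate 3. On those arrays the summed signal of the 41 genes was 533469, 536145, 444460 and 437787, in the same order. Over all probe sets, the highest signal was 108137, 121719, 50789 and 50455 on these arrays, and the 95th percentile 11155, 11259, 10253 and 10469. Some of the 41 genes went the other way, as BL15598 replicate 1 was the highest of its genotype for 10 and Canton S replicate 3 for 9. The null arrays held between 238838 and 287930 for the spermatid markers and between 450688 and 482874 for the 41 genes. The part of germ cell make-up or of array scaling in this pattern was not tested.

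**Figure D5:**
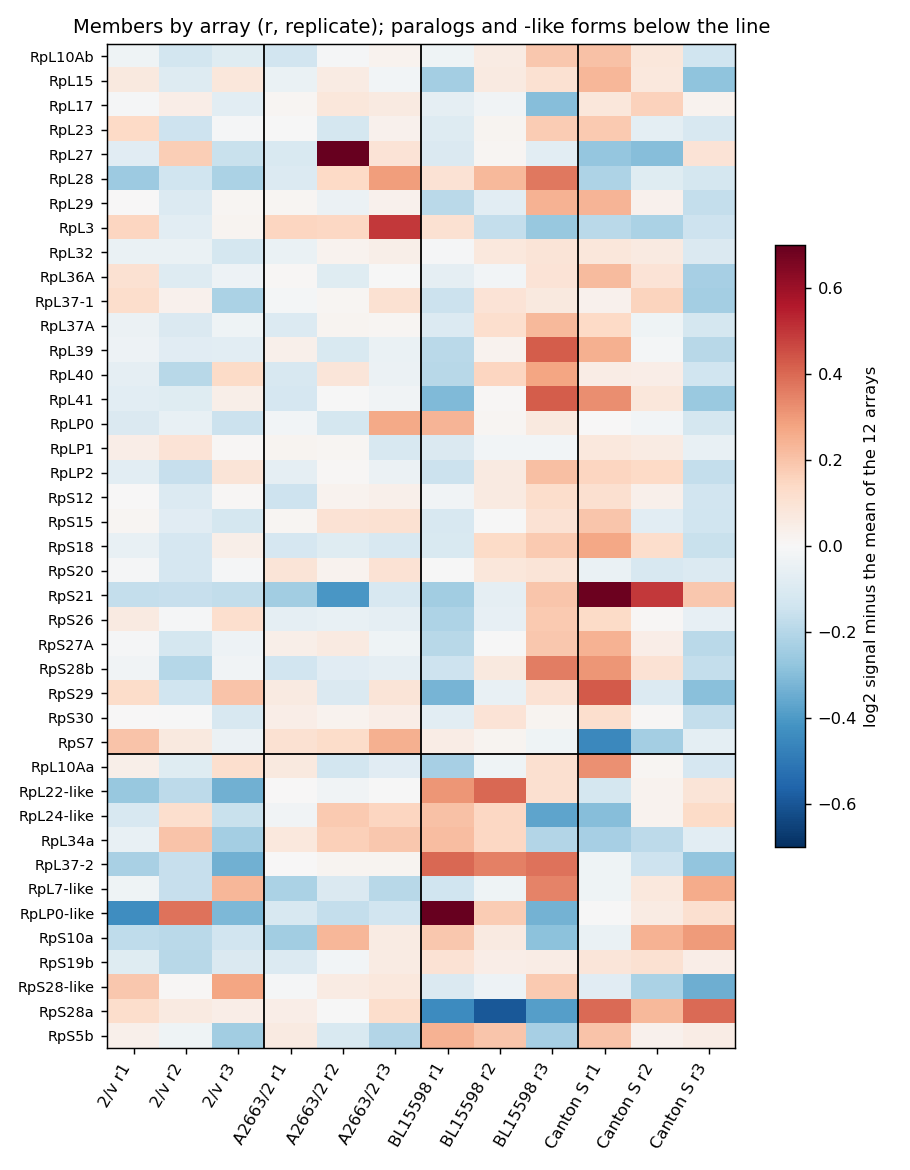
Log2 signal of each of the 41 genes (rows) on each of the 12 arrays (columns, nulls left of wild types) minus its mean over the 12 arrays, with colours full at the ends of the scale and the 12 paralogs and -like forms below the line. The columns of Canton S replicate 1 and BL15598 replicate 3 are mostly red and those of Canton S replicate 3 and BL15598 replicate 1 mostly blue, whereas RpS28a, RpL37-2 and RpL22-like differ by genotype.

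Markers of other cells gave the following values beside the comparison of both nulls with both wild types. Of 7 fat body markers 4 were higher and 0 lower, and their summed signal was 1579 to 2101 in 2/v and 1208 to 1702 in A2663/2, against 873 to 1094 in BL15598 and 892 to 977 in Canton S, so that the nulls lay above the wild types without overlap. Of 10 accessory gland markers none was called at a limma adjusted p or an unadjusted p under 0.05, and their summed signal overlapped, with 34052 to 70303 in 2/v and 40438 to 65489 in A2663/2, against 26218 to 47528 in BL15598 and 25911 to 49023 in Canton S. Of 12 spermatid markers 1 was higher, of 9 spermatocyte markers 2 were higher and 3 lower, and of 7 early germline markers 1 was higher. Of 5 cyst and hub markers and of 5 muscle markers 1 each was lower, and none of 3 follicle cell markers was called. Only 1 cyst or hub marker lay below the control level, and the part of these cells in the values of the 41 genes was not tested.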

How the data were processed

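RNA from Drosophila melanogaster testes was measured on 12 Affymetrix Drosophila Genome 2.0 arrays, 3 per genotype. The deposited values are linear intensities, 1 per probe set. Per the submitters' processing notes Partek 6.5 and RMA were used, yet each deposited array has the same mean intensity of 1500.03 after trimming 2% of probe sets at each end, and the sources used here do not say how the authors scaled the intensity values. Deposited intensities were put on the log2 scale as they are, without offset or normalization.

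Of 18769 probe sets, besides 183 controls, 13647 had 1 gene symbol in the platform's annotation, 402 several and 4720 none. Symbols were updated from a RefSeq gene table (assembly Release 6 plus ISO1 MT). With limma 3.58.1 (R 4.3.3), all probe sets were fitted on 4 genotype means with empirical Bayes moderation, p-values were two-sided, adjusted by Benjamini-Hochberg over 18769 probe sets and called under 0.05. Folds are ratios of geometric means, and signals with an SD are arithmetic means. The fit was run on simulated data with independent normal values and the same spread in every genotype. The shared movement of genes within the wild types and their wider spread were not simulated. Deviations from the genotype mean were correlated between arrays of different genotypes. Arrays that share a replicate number had r between -0.217 and 0.268 (mean 0.0512, 18 pairs). Arrays with different numbers had r between -0.294 and 0.184 (mean -0.0254, 36 pairs). The numbers were not taken to pair arrays, and a replicate block was fitted as an alternative.

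The 41 genes and the other gene lists were chosen with earlier results of these data known. Genes named are su(Hw), paralogs with their partners, up to 10 genes per direction with the smallest adjusted p over both nulls against both wild types, up to 4 per direction called in each other comparison, and up to 3 per direction from each other list. Others are said to be named after their values were seen. Alternatives were other array scalings, an offset, a filter on dim probe sets, a trended prior, array weights, other rules for genes with several probe sets, a replicate block, only the arrays compared, and leaving out each array.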

Additional observations from a re-analysis of the deposited data

Results flagged for a closer look

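RpS28a and the dimmer probe set of RpS7 were called for a difference between the effects of the nulls, by a limma contrast of 2/v against Canton S minus A2663/2 against BL15598. For RpS28a this difference was -0.791 log2 units (limma adjusted p = 0.0131), with the signal of the nulls between those of BL15598 and Canton S. For the dimmer probe set of RpS7 it was -1.47 (SE 0.258, limma adjusted p = 0.0128). All BL15598 arrays of that probe set were under the control level of 20.4, so neither the size nor the sign of its difference is a measured one. Taken over the control level, A2663/2 was at least 1.57-fold higher than BL15598, while 2/v was 3.31-fold higher than Canton S. Each genotype had 3 arrays, too few for a test of single outlying arrays.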

How the results depend on the processing

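Counts of the 41 genes called are small, so 1 gene more or less can move them by over 1.5 times. Only moves of over 1.5 times are listed here. Smaller ones, such as 4 in 2/v against BL15598 with quantile normalization against 3, are left out. Over both nulls against both wild types, 1 gene was higher with quantile normalization, array weights, the mean of a gene's probe sets or probe sets without a suffix, and 2 with a trended and robust prior, against 0 as reported. Against 2 lower as reported, 5 were lower with each array centred on its median, 1 with each array centred on the median of the 41 genes (chosen after seeing the data) or with probe sets without a suffix, and 0 with genotypes ignored or with the replicate block. A2663/2 against BL15598 had 2 called with dim probe sets left out, a trended prior, the mean of probe sets or probe sets without a suffix, 3 with array weights and 0 with only the arrays compared, against 1. 2/v against Canton S had 4 with median centring, 2 with quantile normalization or the mean of probe sets, 3 with a trended prior and 0 with only the arrays compared or the replicate block, against 1. A2663/2 against Canton S had 2 with median centring, dim probe sets left out or the mean of probe sets, 3 with quantile normalization, a trended prior or array weights and 0 with only the arrays compared or the replicate block, against 1. 2/v against BL15598 had 5 with the mean of probe sets and 1 with only the arrays compared, against 3. BL15598 against Canton S had 4 with a trended prior or array weights and 1 with only the arrays compared, against 2. 2/v against A2663/2 had 1 with the mean of probe sets or probe sets without a suffix, against 0, and the difference of the null effects had 2 with probe sets without a suffix, against 1. The added gene in that difference was RpS7, read there from its dimmer probe set. The cause of these moves was not tested, other than that fewer arrays entered the fits of the arrays compared.

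Leaving out each array in turn gave 0 to 1 higher and 0 to 2 lower over both nulls against both wild types, 0 to 1 in A2663/2 against BL15598 and in 2/v against Canton S, 0 to 2 in A2663/2 against Canton S, 3 to 4 in 2/v against BL15598, 2 to 3 in BL15598 against Canton S, 0 to 0 in 2/v against A2663/2 and in all 4 pairs, and 1 to 1 in the difference of the null effects. The su(Hw) change lay between -4.75 and -4.28.

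Small changes that were not called turned sign over both nulls against both wild types. With each array centred on its median these were RpL17 at -0.131, RpL24-like at -0.118, RpL34a at -0.0584, RpL37-1 at -0.158, RpS20 at -0.142, RpS28a at -0.0364 and RpS29 at -0.0905. RpL10Aa came to 0.0114 with each array centred on the median of the 41 genes and to 0.0257 with quantile normalization, RpL37-1 to -0.00992 with array weights and RpS29 to -0.0381 with probe sets without a suffix. Leaving out arrays gave -0.0681 to 0.0411 for RpL10Aa, -0.00272 to 0.0658 for RpL17, -0.0381 to 0.106 for RpL24-like and -0.0429 to 0.0616 for RpL37-1. RpS7 came to 1.35 as the mean of both its probe sets and 2.46 with the dimmer one alone, neither of them a measured size, since the dimmer one lay below the control level in BL15598. The replicate block left the changes as they were and ended the calls of RpS21 (limma adjusted p = 0.0715) and RpL22-like (0.0708) over both nulls against both wild types and of RpS21 against Canton S (0.0735 in 2/v and 0.0522 in A2663/2). Over all probe sets, calls over both nulls against both wild types numbered 2528, between 1401 with genotypes ignored and 3259 with array weights.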

Other observations

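A further 3 probe sets carry the symbol of 1 of the 41 genes together with another symbol and entered no comparison of the report. The probe set of euc and RpLP0 averaged 93.8 ± 38.1 in 2/v and 59.6 ± 13 in A2663/2, against 133 ± 43 in BL15598 and 85.9 ± 32.8 in Canton S (SD, n = 3 each), with a log2 change of -0.51 over both nulls against both wild types (limma adjusted p = 0.308). That of snoRNA:Or-CD12 and RpL28 had a log2 change of -0.03 (limma adjusted p = 0.947), and that of CG34164 and RpL7-like had 0.02 (limma adjusted p = 0.95).

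RpL28, named after its values were seen, was the gene of the 41 nearest to a call in 2/v against BL15598 without passing. It averaged 7191 ± 293 in 2/v and 9776 ± 908 in BL15598 (SD, n = 3 each), with no overlap (log2 -0.44, SE 0.123, limma adjusted p = 0.0517). RpL28 was called there with median centring, quantile normalization, dim probe sets left out, a trended and robust prior or array weights. The same held with the offset, the mean of probe sets, the replicate block or without A2663/2 replicate 1. It was not called with each array centred on the median of the 41 genes or with only the arrays compared.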
